A study of Mus musculus with 127 samples.

Results

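The 9 interferon response genes Irf9, Stat2, Irf1, Irf7, Ifih1, Isg15, Ifit1, Ifit3 and Bst2 were read across single mouse cells of 6 groups. They were taken by name from a table of 53465 genes, in which each of the 9 symbols matched 1 Ensembl identifier. In the question behind the study, human huntingtin exon 1 with an expanded glutamine tract stands for Huntington's disease. Striatal neurons of newborn wild-type C57BL/6 mice (postnatal day 0 to 1) were grown on small islands of cortical astrocytes and infected with lentiviruses. The 97Q virus carried the exon with 97 glutamines fused to GFP, the 25Q virus the same exon with 25 glutamines, and the empty vector carried no gene cassette. RGFP109 inhibits the class I histone deacetylases HDAC1 and HDAC3. It was given at 100 nM beginning on day 6 in culture, and vehicle was DMSO. On day 15 the content of each cell was drawn into the recording pipette and made into 1 library.

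There were 26 97Q vehicle neurons and 29 25Q vehicle neurons. Neurons treated with RGFP109 numbered 26 with 97Q and 23 with 25Q, and each of these 4 groups was spread over 3 labelled batches. Batch 3 also held 9 vehicle-treated neurons with the empty vector and 14 untreated cortical astrocytes. The promoter that drives the transgene is not given in the sources used here, nor is the animal behind each cell. The table holds mouse genes, so the construct of a neuron was taken from its label. Total counts per cell ran between 999700 and 9263305 with a median of 4440040. Neuron markers had medians of 6161 to 10453 CPM (counts scaled to a library total of 1e6) in the 5 groups of neurons and a median of 299 CPM in astrocytes. The libraries overlapped at the edges: astrocytes reached 2401 CPM of neuron markers, and cell 9 of 97Q RGFP109, labelled a neuron, held 913 CPM of them beside 13031 CPM of microglia markers. Astrocyte markers had a median of 7008 CPM in astrocytes and medians of 158 to 282 CPM in the groups of transgene neurons. Of the neurons, 13 held over 1000 CPM of a list of markers of a non-neuronal type, called marker-rich here. Of these, 12 carried a transgene.

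Interferons are secreted proteins that cells release on meeting viral or misplaced nucleic acid. Type I interferon binds the receptor Ifnar1-Ifnar2, the kinases Jak1 and Tyk2 phosphorylate Stat2, and Stat2 and Irf9 enter the nucleus as parts of the factor ISGF3. ISGF3 binds the interferon-stimulated response element (ISRE) in promoters of antiviral genes, whereas interferon gamma acts at gamma-activated sites (GAS). Irf1 and Irf7 are transcription factors that are themselves induced and raise interferon and target genes. Ifih1 encodes MDA5, a sensor of long double-stranded RNA. Isg15 is a ubiquitin-like modifier, Ifit1 and Ifit3 are antiviral proteins of the IFIT family, and Bst2 (tetherin) holds budding virus at the cell surface.

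The promoters of 3 target genes are shown because their ISRE cores are what the pathway reads, and that of Irf9 because it held none. The sequences are RefSeq promoter windows on GRCm38.p6, 250 bases before to 50 after the annotated start, printed 5′ to 3′ on the gene's strand. Capitals mark each match to the ISRE core, a pair of GAAA words with any 2 bases between them (TTTC words on the other strand), or to the GAS core TTCNNNGAA. Both strands were searched. Isg15 lies at chr4:156200769-156201068 on the minus strand, Ifit1 at chr19:34640639-34640938 on the plus strand, Bst2 at chr8:71537423-71537722 on the minus strand, and the first of the windows of Irf9 at chr14:55603735-55604034 on the plus strand.
Isg15: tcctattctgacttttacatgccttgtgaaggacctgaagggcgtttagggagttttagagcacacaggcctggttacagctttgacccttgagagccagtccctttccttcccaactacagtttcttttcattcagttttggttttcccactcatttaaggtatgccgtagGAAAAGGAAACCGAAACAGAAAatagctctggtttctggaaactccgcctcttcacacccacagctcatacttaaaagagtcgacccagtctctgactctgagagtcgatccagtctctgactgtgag
Ifit1: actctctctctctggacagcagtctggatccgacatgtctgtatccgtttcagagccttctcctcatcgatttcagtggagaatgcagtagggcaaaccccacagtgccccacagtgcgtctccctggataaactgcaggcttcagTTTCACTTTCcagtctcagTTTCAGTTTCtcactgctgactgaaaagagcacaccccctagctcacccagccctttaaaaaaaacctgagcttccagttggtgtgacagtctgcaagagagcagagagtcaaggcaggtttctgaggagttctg
Bst2: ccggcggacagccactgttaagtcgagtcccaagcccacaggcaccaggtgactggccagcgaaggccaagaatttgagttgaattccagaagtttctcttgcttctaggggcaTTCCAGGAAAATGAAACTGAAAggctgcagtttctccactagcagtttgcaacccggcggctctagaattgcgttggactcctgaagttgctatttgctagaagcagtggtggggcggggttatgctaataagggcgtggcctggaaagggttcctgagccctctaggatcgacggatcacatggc
Irf9: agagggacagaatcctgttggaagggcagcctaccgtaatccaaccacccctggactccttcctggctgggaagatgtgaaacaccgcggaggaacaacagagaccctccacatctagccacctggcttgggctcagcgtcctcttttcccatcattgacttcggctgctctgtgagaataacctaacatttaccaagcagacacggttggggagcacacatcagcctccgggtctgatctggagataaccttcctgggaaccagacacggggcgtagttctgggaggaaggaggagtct

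The Isg15 window held 3 overlapping ISRE cores between positions -78 and -57 from the start. Ifit1 held 2 separate cores, and Ifit3, whose window is not printed, also held 2. Bst2 held 2 overlapping cores between positions -130 and -115, and a GAS core between -136 and -128 that overlaps the first of them. Stat2 had 1 ISRE core at position -222, and Ifih1 had 1 that began at position 32, after the start. Irf1 had 1 GAS core in one of its 2 windows, and no match was found in either window of Irf9 or in that of Irf7. Thus 6 of the 9 genes had an ISRE core, against 3.99% of the 27025 genes with a window. A GAS core stood in 9.55% of genes. A match describes letters, not a bound site. Both windows of Irf9 began after the GENCODE start of the gene at chr14:55603571, so its bases before that start were not searched.

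How far single cells carried the counts set what could be said of each gene. Over the neurons with a transgene, the richest neuron held a median of 26.9% of a gene's counts across the 9 genes, against 8.73% across all 15091 genes tested, at median levels of 25.5 CPM and 21.5 CPM. To reach 50% of a gene's counts took a median of 4 neurons for the 9 genes and 11 neurons for all genes tested. Irf9 was spread most widely, with a count in 87.5% of these neurons and 7.37% of its counts in the richest one. Stat2 followed with 12.5% in 1 neuron. Ifit1 had 32.5% of its counts in 1 neuron, Ifit3 had 30.1%, Bst2 27.8%, Irf1 27.6%, Ifih1 26.9%, Isg15 23.4% and Irf7 19.1%.

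**Figure D1:**
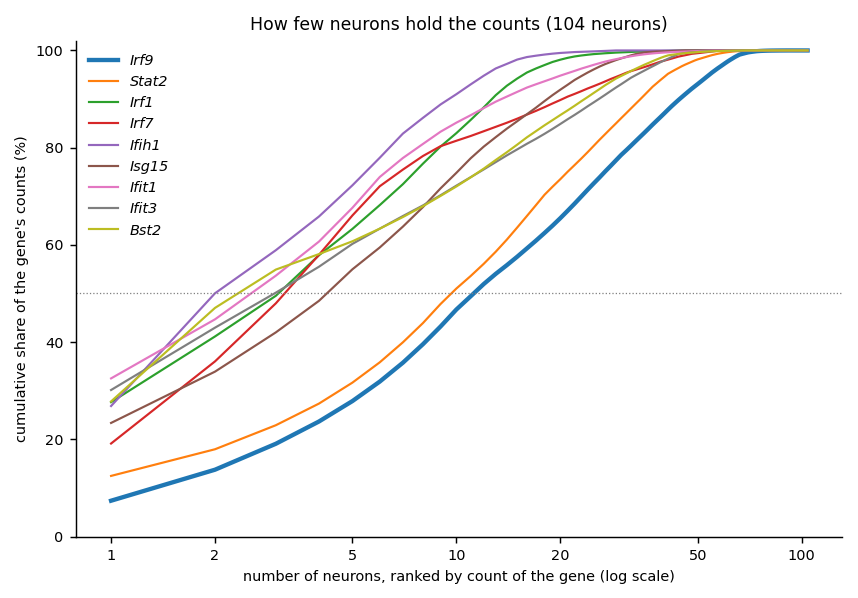
Cumulative share of each gene's counts (%, vertical axis) over the transgene neurons ranked by their count of that gene (horizontal axis, log scale), 1 line per gene. Irf9 (thick line) needed 12 neurons to reach 50%, Stat2 needed 10, and the other 7 genes needed 2 to 5.

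Levels per kilobase of exon, over the summed counts of all neurons, were highest for Bst2 at 27.9 CPM per kilobase, Ifit1 at 23.9 and Irf9 at 20.2. Ifit3 stood at 13.4, Isg15 at 9.92, Stat2 at 5.49 and Irf1 at 2.76 CPM per kilobase. Irf7 (0.83) and Ifih1 (0.54) were lowest. The order differed between groups: Ifit1 was highest in 97Q vehicle (60.7 CPM per kilobase) and Bst2 in 25Q vehicle (16.0), Bst2 in 97Q RGFP109 (49.04) and Ifit3 in 25Q RGFP109 (16.6), and Irf9 in empty vector neurons (11.5). Behind the pooled levels, cell 22 of 97Q RGFP109 held 26.8% of the Bst2 counts, and cell 22 of 97Q vehicle held 32.2% of the Ifit1 counts. The order does not reflect how common a gene was: at 1 count a cell, Irf9 was found in 88.5% of neurons (95% exact binomial interval 81.1 to 93.7%), Bst2 in 66.4% and Ifit1 in 61.9%. At 10 CPM a cell, Irf9 remained in 65.5% of neurons and none of the other 8 genes passed 44.2%, the share of Stat2. This interval covers the draw of neurons taken as independent, and cells are not replicates. Poisson intervals given below cover the counting of reads only, and the libraries carried no molecular identifiers to tell copies of 1 molecule apart.

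**Figure D2:**
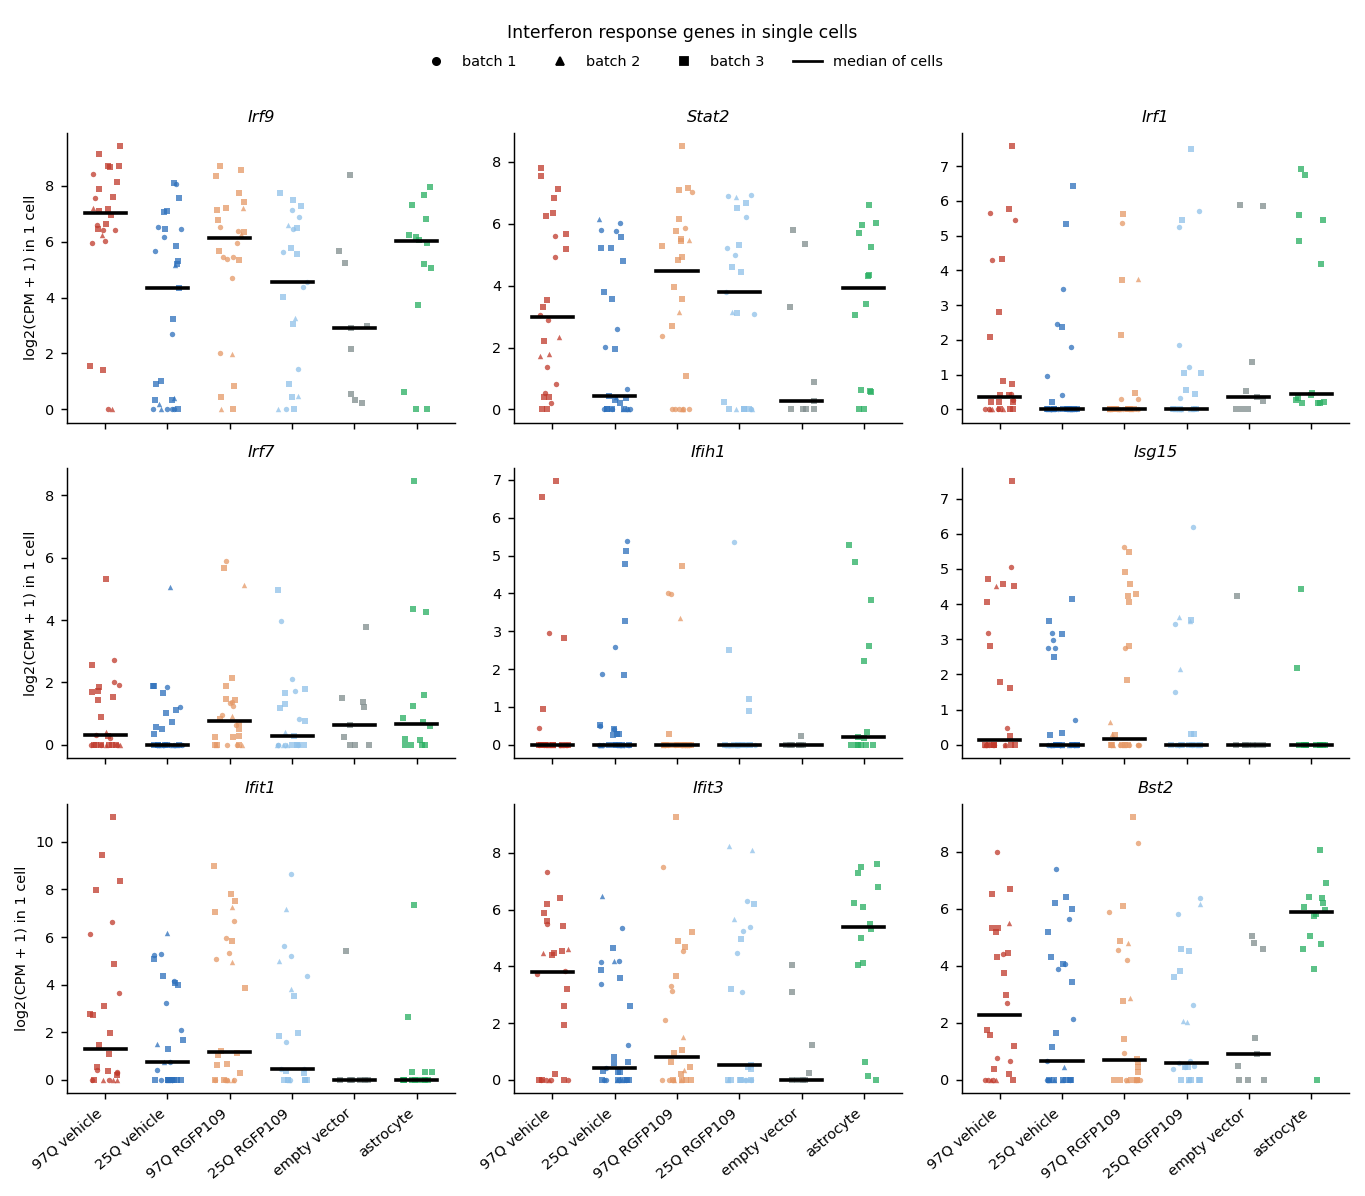
Level of each gene in each cell as log2(CPM + 1) (vertical axes), by group and with the batch as the point shape; the bar is the median of the cells. For Irf9 the median was 130 CPM in 97Q vehicle and 19.4 CPM in 25Q vehicle, whereas for Ifih1 the median neuron of each of the 5 groups was at 0.

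Irf9, the DNA-binding subunit of ISGF3, was higher in 97Q than in 25Q neurons under vehicle in each of the 3 batches. Single 97Q vehicle neurons ran between 0 and 682 CPM with a median of 130 CPM, and single 25Q vehicle neurons ran between 0 and 273 CPM with a median of 19.4 CPM. At least 10 CPM was found in 22 of 26 97Q vehicle neurons and in 15 of 29 25Q vehicle neurons. Within batches the median neuron held 84.3, 75.2 and 192 CPM in 97Q vehicle, against 27.5, 0.23 and 35.8 CPM in 25Q vehicle. The cells of the groups overlapped, while the medians stood in the same order in every batch.

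Summing counts by group and batch gave Irf9 119, 79.3 and 279 CPM in 97Q vehicle, against 60.6, 10.9 and 75.5 CPM in 25Q vehicle (batches 1, 2 and 3). The means of these sums were 159 ± 106 CPM in 97Q vehicle and 49 ± 33.8 CPM in 25Q vehicle (SD, n = 3 batches each). With a term for batch the fitted log2 fold change was 1.79 with a standard error of 0.48. edgeR's quasi-likelihood test gave an unadjusted p of 0.00432 and a Benjamini-Hochberg adjusted p of 0.969, which did not pass 0.05. DESeq2 on the same sums gave 1.74 and an adjusted p of 0.0428, and adjusted p over all alternatives ran between 0.0428 and 0.99988. The mean log2 difference within batches was 1.86 with all cells and 1.81 without the neuron that held the most Irf9 counts. Without the marker-rich neurons the fitted value was 1.79. A stretch of 123 bases of Irf9's exons also belongs to Rnf31 on the same strand, and 1.82% of its 50-base words occur in other genes.

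No gene of the 15091 tested passed an adjusted p of 0.05 for 97Q against 25Q under vehicle by edgeR (0%), and none of the 9 did. At an unadjusted p under 0.05 stood 1 of the 9, Irf9, against 3.96% of all genes tested. DESeq2 called 213 genes, Irf9 among them, and limma-voom called 0. The fitted change was above 0 for 8 of the 9 genes, against 52.4% of all genes tested, with a median of 1.67 for the 9 and 0.06 for all. The 9 genes, and the lists below, were chosen with earlier results of these data known. Their counts beside all genes, here and in batch 3, are therefore description and not a test. Without the marker-rich neurons it was above 0 for 6 of the 9. Irf9, Isg15 and Bst2 were higher in all 3 batches, which is 3 of 9 against 15.8% of all genes tested. In batches 1 and 2 of 97Q vehicle, however, 1 neuron held most of the Isg15 counts and 1 most of the Bst2 counts.

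**Figure D3:**
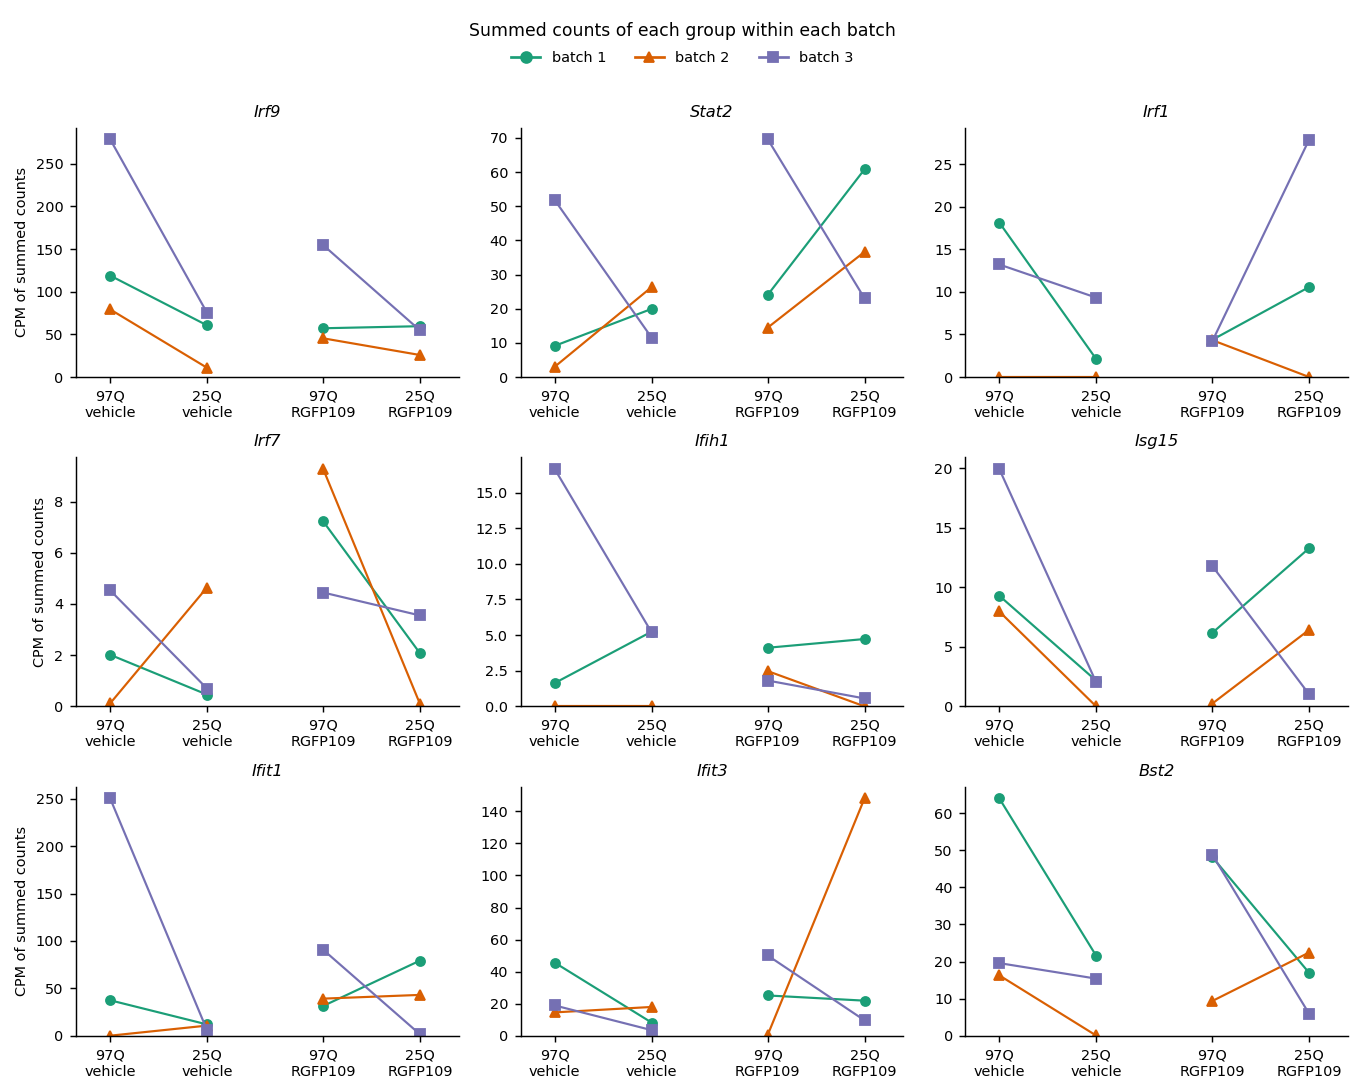
Level of each gene in the summed counts of a group within a batch (CPM, vertical axes from 0), with 97Q left of 25Q under vehicle and under RGFP109 and 1 line per batch. The lines of Irf9, Isg15 and Bst2 fall to the right in all 3 batches under vehicle, and those of Stat2, Ifit1 and Ifit3 cross.

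Isg15 reached 9.29, 7.96 and 19.9 CPM in the 97Q vehicle sums, against 2.16, 0 and 2.03 CPM in the 25Q vehicle sums. The 3 97Q sums stood above the 3 25Q sums. In each batch, however, 1 neuron of 97Q vehicle held most of the counts: 83.9% came from cell 7 in batch 1, 100% from cell 10 in batch 2 and 62.4% from cell 22 in batch 3. Isg15 had a count in 13 of 26 97Q vehicle neurons and in 11 of 29 25Q vehicle neurons. The fitted log2 fold change was 3.91 with a standard error of 1.87 (edgeR, adjusted p = 0.969). The mean difference within batches was 2.55 with all cells and 2.15 without the richest neuron of both groups, cell 22 of batch 3. That value keeps cells 7 and 10, and cell 10 held every Isg15 count of its sum.

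Bst2 showed the same reliance on few cells. Its sums were 64, 16.3 and 19.6 CPM in 97Q vehicle, against 21.6, 0.05 and 15.4 CPM in 25Q vehicle. In batch 1 of 97Q vehicle 95.7% of the Bst2 counts came from cell 7, a marker-rich neuron with 2285 CPM of astrocyte markers. Without the richest neuron the mean log2 difference within batches was 0.69, against 1.96 with it. The 0.69 keeps batch 2, with a difference of 4.03, where cell 10 held every 97Q vehicle count and 25Q vehicle had 1 count. In batch 1 the median neuron held less Bst2 in 97Q vehicle (0.65 CPM) than in 25Q vehicle (1.99 CPM). Batch 3 medians ran the other way, at 12.4 and 2.12 CPM, and those of batch 2 were both 0. The fitted value of 1.67 (standard error 1.39, edgeR adjusted p = 0.969) became 0.98 without the marker-rich neurons.

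Ifit3 stood at 45.6, 14.5 and 18.9 CPM in 97Q vehicle and at 8.21, 17.9 and 3.47 CPM in 25Q vehicle, so that batch 2 ran the other way. The same cell 7 held 85.01% of its counts in batch 1 of 97Q vehicle. The fitted log2 fold change was 1.66 with a standard error of 1.51, and 1.14 without the marker-rich neurons. Ifit3 shares 51.2% of its 50-base words with its neighbour Ifit3b, so reads of these genes can be split or lost between them. Ifit3b itself had a fitted change of 2.31.

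Of the 9 genes, Ifit1 had the largest difference in batch 3, while in batch 2 it was lower in 97Q. Its sums were 37.4, 0 and 251 CPM in 97Q vehicle, against 11.9, 10.6 and 6.01 CPM in 25Q vehicle. Single 97Q vehicle neurons of batch 3 ran between 0 and 2121 CPM with a median of 5.63 CPM, and those of 25Q vehicle between 0 and 32.6 CPM with a median of 0. Cell 22 of 97Q vehicle alone held 54.6% of the group's Ifit1 counts, 47.7% of its Isg15 counts and 49.02% of its Ifih1 counts. Its astrocyte markers summed to 252 CPM, its microglia markers to 0 and its neuron markers to 7687 CPM. The fitted Ifit1 change was 2.72 with a standard error of 2.19, and without batch 3 it was -0.03.

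Stat2, the partner of Irf9 in ISGF3, had no common direction over the batches. The sums were 9.12, 3.00 and 51.8 CPM in 97Q vehicle and 19.9, 26.3 and 11.6 CPM in 25Q vehicle, lower in 97Q in batches 1 and 2 and higher in batch 3. The fitted log2 fold change was -0.60 with a standard error of 1.12, and 0.12 without the batch term. A count was found in 24 of 26 97Q vehicle neurons, against 19 of 29 25Q vehicle neurons.

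The standard errors of Irf1, Irf7 and Ifih1 exceeded their fitted changes. Irf1 sums were 18.1, 0 and 13.2 CPM in 97Q vehicle and 2.12, 0 and 9.32 CPM in 25Q vehicle, with a fitted change of 1.80 (standard error 2.13). Irf7 sums were 2.02, 0.12 and 4.53 CPM in 97Q vehicle and 0.46, 4.64 and 0.70 CPM in 25Q vehicle. Its fitted change of 0.08 (standard error 2.11) took either sign among the alternatives. Ifih1 sums were 1.63, 0 and 16.6 CPM in 97Q vehicle and 5.24, 0 and 5.20 CPM in 25Q vehicle, with a fitted change of 0.78 (standard error 2.16). In single cells Ifih1 had a count in 6 of 26 97Q vehicle neurons and in 14 of 29 25Q vehicle neurons.

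RGFP109 in 97Q neurons went with lower Irf9 in every batch, by less than the test could call. Irf9 sums were 57.1, 45.4 and 155 CPM in 97Q RGFP109, against 119, 79.3 and 279 CPM in 97Q vehicle. The median neuron held 68.7 CPM in 97Q RGFP109 and 130 CPM in 97Q vehicle. The fitted log2 fold change was -0.74 with a standard error of 0.46 (edgeR, adjusted p = 0.999), and -0.38 without the marker-rich neurons. Isg15 was lower in every batch as well, with 6.17, 0.23 and 11.8 CPM in 97Q RGFP109 against 9.29, 7.96 and 19.9 CPM in 97Q vehicle. Its fitted change was -1.77 with a standard error of 1.75. These are 2 of 9 genes, against 14.1% of all genes tested that were lower in all 3 batches. The comparison shares the 97Q vehicle sums with the one before it.

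Stat2 sums were higher with RGFP109 in all 3 batches with either construct. In 97Q neurons the sums were 24.0, 14.5 and 69.6 CPM with RGFP109 and 9.12, 3.00 and 51.8 CPM with vehicle, and the fitted change was 1.03 (standard error 1.01). It was the 1 gene of the 9 higher in all 3 batches there, against 9.64% of all genes tested, and the fitted change was 0.18 without the marker-rich neurons. In 25Q neurons the sums were 60.8, 36.6 and 23.0 CPM with RGFP109 and 19.9, 26.3 and 11.6 CPM with vehicle, with a fitted change of 0.97 (standard error 1.00). In batch 2, 1 neuron held 94.8% of the 25Q RGFP109 counts and 1 neuron 99.8% of the 25Q vehicle counts. Neither passed the test (edgeR, adjusted p = 0.999 in 97Q and 1.0 in 25Q).

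Irf7 stood at 7.23, 9.28 and 4.45 CPM in 97Q RGFP109, against 2.02, 0.12 and 4.53 CPM in 97Q vehicle, with a fitted change of 1.91 (standard error 1.82). In each batch of 97Q RGFP109 1 marker-rich neuron held most of these counts, 86.8%, 96.7% and 80.8%, and without the marker-rich neurons the fitted change was -1.32. Ifit3 and Bst2 had fitted values of 0.19 and 0.16, with standard errors of 1.47 and 1.32. Cell 22 of 97Q RGFP109, a marker-rich neuron, held 74.3% of that group's Ifit3 counts and 63.1% of its Bst2 counts. Ifit1 had a fitted value of -0.39 (standard error 1.94). The fitted values of Irf1 (3.43, standard error 3.25) and Ifih1 (2.71, standard error 3.15) rested on batch 2, where 97Q vehicle had 0 counts of either gene, and became -1.94 and -1.93 without that batch. In 97Q RGFP109 all 56 Irf1 counts of that batch came from cell 9, which held 13031 CPM of microglia markers, and all 32 Ifih1 counts from cell 11, with 1936 CPM of astrocyte markers. Without the marker-rich neurons the fitted values were -4.57 for Irf1 and -0.50 for Ifih1. Of the 9 fitted values, 6 were above 0, against 48% of all genes tested. Without the marker-rich neurons 1 of the 9 was, that of Stat2. By edgeR no gene passed the adjusted threshold for RGFP109 against vehicle in 97Q (0 of 15091, 0%), and 375 (2.48%) stood at an unadjusted p under 0.05, none of the 9 among them. DESeq2 called 110 genes, none of the 9 among them, and limma-voom called 0.

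In 25Q neurons Isg15, Ifit1 and Ifit3 were higher with RGFP109 than with vehicle in batches 1 and 2. Isg15 and Ifit1 were lower in batch 3, and Bst2 was lower in batches 1 and 3. Isg15 sums were 13.3, 6.42 and 1.01 CPM in 25Q RGFP109, against 2.16, 0 and 2.03 CPM in 25Q vehicle, and cell 5 held 89.9% of the batch 1 counts of 25Q RGFP109. The fitted change was 3.37 with a standard error of 1.90. Ifit1 sums were 79.3, 43.1 and 1.45 CPM in 25Q RGFP109 and 11.9, 10.6 and 6.01 CPM in 25Q vehicle, with a fitted change of 2.16 (standard error 1.84) and 84.8% of batch 1 in the same cell 5. Without cell 5 the mean difference within batches was 0.67 for Isg15, against 1.49 with it, and 0.22 for Ifit1, against 1.01 with it. Ifit3 was higher in all 3 batches, with 21.9, 148 and 9.57 CPM in 25Q RGFP109 against 8.21, 17.9 and 3.47 CPM in 25Q vehicle, and a fitted change of 2.36 (standard error 1.48). In batch 2 of 25Q RGFP109, 51.7% of its counts came from cell 10, a marker-rich neuron with 1573 CPM of astrocyte markers. Astrocyte markers in that batch summed to 823 CPM in 25Q RGFP109 and 148 CPM in 25Q vehicle, and their part in the Ifit3 values was not tested. Without the marker-rich neurons the fitted change was 1.71. Stat2 and Ifit3 make 2 of 9 genes higher in all 3 batches, against 12.3% of all genes tested.

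Irf9 had no common direction in 25Q neurons, at 59.6, 25.8 and 54.7 CPM with RGFP109 and 60.6, 10.9 and 75.5 CPM with vehicle. Its fitted change was 0.19 with a standard error of 0.46, and the value without batch 2 was -0.13. The remaining fitted changes were 1.83 for Irf1, 1.12 for Bst2, -0.03 for Irf7 and -0.74 for Ifih1, with standard errors of 1.54 to 2.14. Over the 9 genes, 7 fitted values were above 0, against 50.1% of all genes tested. No gene passed the adjusted threshold by edgeR (0 of 15091, 0%), and 381 (2.52%) stood at an unadjusted p under 0.05, none of the 9 among them. DESeq2 called 143 genes, none of the 9 among them, and limma-voom called 0.

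Whether the drug acted differently in 97Q and 25Q neurons was fitted directly as an interaction. Isg15 had a value of -5.14 with a standard error of 2.72 (edgeR, unadjusted p = 0.0900, adjusted p = 0.998). Ifit1 had -2.55, Ifit3 -2.17, Bst2 -0.96, Irf9 -0.94 and Stat2 0.07, and Ifih1, Irf7 and Irf1 had 3.45, 1.94 and 1.6. Above 0 were 4 of the 9 values, against 48.4% of all genes tested, and 2 of the 9 without the marker-rich neurons. No gene passed the adjusted threshold (0 of 15091, 0%), and 393 (2.6%) stood at an unadjusted p under 0.05, none of the 9 among them. DESeq2 called 70 genes, none of the 9 among them, and limma-voom called 0.

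**Figure D4:**
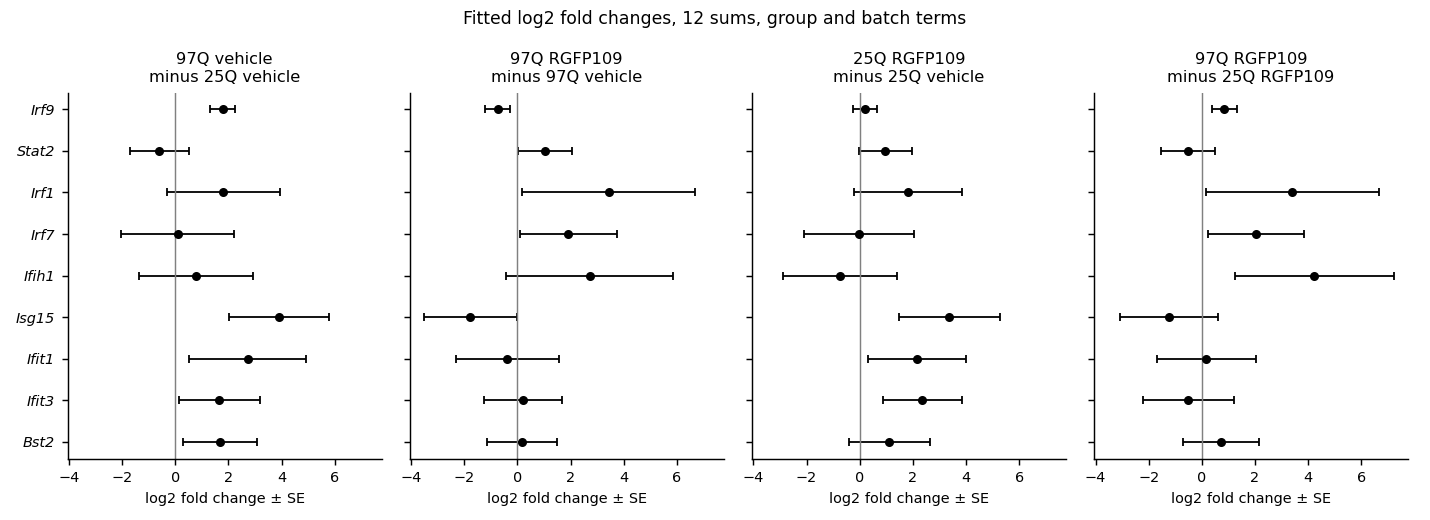
Fitted log2 fold change of each gene with its standard error (horizontal axes) in 4 comparisons, 12 sums in 1 fit with terms for group and batch. Irf9 has the narrowest bars, with 1.79 ± 0.48 for 97Q vehicle minus 25Q vehicle, and the sparse genes Irf1, Irf7 and Ifih1 have bars of 1.81 to 3.25 on either side.

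Between the 97Q and 25Q constructs under RGFP109, Irf9 was higher in 97Q in batches 2 and 3. Its sums were 57.1, 45.4 and 155 CPM in 97Q RGFP109 against 59.6, 25.8 and 54.7 CPM in 25Q RGFP109. The fitted change was 0.85 with a standard error of 0.47 (edgeR, adjusted p = 0.999). Irf7 was the 1 gene of the 9 higher in all 3 batches, with 7.23, 9.28 and 4.45 CPM in 97Q RGFP109 against 2.07, 0.10 and 3.55 CPM in 25Q RGFP109, and a fitted change of 2.03 that was -0.84 without the marker-rich neurons. Of all genes tested, 13.3% were higher in all 3 batches. Irf1 stood at 4.37, 4.33 and 4.20 CPM in 97Q RGFP109 and at 10.6, 0 and 27.9 CPM in 25Q RGFP109. Its fitted change of 3.40 came with a mean difference within batches of -0.39, and it was -2.09 without batch 2. The other fitted changes were 4.23 for Ifih1, 0.71 for Bst2, 0.17 for Ifit1, -0.50 for Ifit3, -0.53 for Stat2 and -1.24 for Isg15. Above 0 were 6 of the 9 values, against 50.1% of all genes tested. Without the marker-rich neurons 2 of the 9 were, those of Irf9 and Ifih1. By edgeR no gene passed the adjusted threshold (0 of 15091, 0%), and 564 (3.74%) stood at an unadjusted p under 0.05, none of the 9 among them. DESeq2 called 277 genes and limma-voom 3, none of the 9 among them.

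Batch 3 allowed a comparison with neurons that carried the empty vector, 1 sum per group and so without a replicate check. Irf9 reached 279 CPM in 97Q vehicle (95% Poisson interval 275 to 283 CPM) and 61.7 CPM in empty vector neurons (59.4 to 64.1 CPM), a 4.52-fold difference. It was 4.02-fold without the richest 97Q neuron and 21.7-fold without the richest empty vector neuron. In the empty vector group 82.3% of the Irf9 counts came from cell 9, with 332 CPM, while the median of the 9 neurons was 6.57 CPM. Ifit1 reached 251 CPM in 97Q vehicle and 6.34 CPM in empty vector neurons, Isg15 19.9 and 1.496 CPM, Ifit3 18.9 and 2.53 CPM, and Stat2 51.8 and 8.25 CPM. Without the richest 97Q neuron of each gene, these folds were 17.4 for Ifit1, 5.38 for Isg15, 6.31 for Ifit3 and 5.28 for Stat2. All empty vector counts of Ifit1 and of Isg15 came from 1 neuron each.

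At least 2-fold higher in 97Q vehicle than in empty vector neurons were 7 of the 8 genes with a fold, against 23.8% of the genes compared, and 5 were without the richest 97Q neuron. None of the 8 was at least 2-fold lower, against 27.3% of the genes compared, and 1 was without the richest 97Q neuron. Irf7 was at 2.59-fold, and at 0.57-fold without that neuron. Bst2 was at 2.01-fold and 1.68-fold, and Irf1 at 0.76-fold and 0.24-fold. Ifih1 had 1109 counts in 97Q vehicle and 1 count in empty vector neurons, and no fold is given. Between empty vector and 25Q vehicle neurons of batch 3, 1 of the 8 genes was at least 2-fold higher, Irf7 at 1.75 CPM in empty vector and 0.70 CPM in 25Q vehicle, against 21.2% of the genes compared. None of the 8 was at least 2-fold lower, against 26% of the genes compared, and Ifih1, which has no fold, had 1 count in empty vector and 358 counts in 25Q vehicle. Without the richest empty vector neuron of each gene, none of the 8 was at least 2-fold higher and 6 were at least 2-fold lower. Leaving out the richest cell of 1 group lowered that group's level, and it was not done for all genes. Counts of the 9 genes without a richest cell therefore have no share of all genes to stand beside. Irf9 stood at 0.82-fold, and at 0.17-fold without empty vector cell 9, Stat2 at 0.71-fold and 0.32-fold, and Irf7 at 2.52-fold and 1.10-fold. Isg15 and Ifit1 had 0 counts left. Set against 25Q vehicle in the same batch, 7 of the 9 genes were at least 2-fold higher in 97Q vehicle, against 16.8% of the genes compared, and 5 were without the richest 97Q neuron.

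In astrocytes Bst2 had the highest level per kilobase of the 9 genes, at 78.8 CPM per kilobase, followed by Ifit3 at 37.9. Ifit3 reached 66.1 CPM in astrocytes and 2.53 CPM in empty vector neurons, and it had a count in 13 of 14 astrocytes, against 4 of 9 empty vector neurons. Bst2 reached 71.2 CPM in astrocytes and 9.75 CPM in empty vector neurons, with a count in 13 of 14 astrocytes, against 6 of 9 neurons. Irf9 stood at 80.9 CPM in astrocytes, against 61.7 CPM in empty vector and 279 CPM in 97Q vehicle neurons. Isg15 and Ifit1 were low in astrocytes, at 1.82 CPM and 13.4 CPM, and 96.7% of that Ifit1 came from astrocyte cell 10. The same cell held 91.3% of the astrocytes' Irf7 counts. At least 2-fold higher in astrocytes than in empty vector neurons were 5 of the 8 genes with a fold, against 28.4% of the genes compared, and none was at least 2-fold lower, against 38.3%. Without the richest astrocyte of each gene, 3 were higher and 2 lower. Set against 97Q vehicle neurons, 4 of the 9 genes (Ifit3, Bst2, Irf7 and Irf1) were at least 2-fold higher in astrocytes, against 27.5% of the genes compared. Irf9, Ifih1, Isg15 and Ifit1 were at least 2-fold lower, 4 of 9 against 37.7%. Without the richest astrocyte, 2 were higher and 5 lower. Here too the shares of all genes are with every astrocyte.

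Ifit3 and Bst2 were also the pair most alike across neurons. Between these genes, Pearson's r of log2(CPM + 1) over all neurons, with the mean of each group within each batch removed, was 0.55, the highest of the 36 pairs, and 0.36 over the 100 neurons that were not marker-rich. The pairs had a median r of 0.15, and Irf9 had an r of 0.07 with Stat2 and -0.03 with Ifit3. All points share their library depth, and cells are not replicates. The genes most like Bst2 among 11014 compared were Mgst1 (r = 0.74), Ifitm3 (0.71) and Ramp1 (0.70), and those most like Ifit3 were Gm12854 (0.71), S100a11 (0.71) and Gm7665 (0.69). For Ifit1 they were Rtp4 (0.40), Ldhb (0.38) and Oasl2 (0.37), for Irf7 Vcam1 (0.58), Cyp1b1 (0.57) and Shroom3 (0.56). For Irf9 they were Rab11fip5 (0.40), Asah1 (0.39) and AW551984 (0.38), and for Stat2 1700007K13Rik (0.41), Slc39a13 (0.39) and Zfp57 (0.39). What astrocyte RNA in the pipette contributed to these values was not tested.

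Counts of all 9 genes together were found in 5 cells: 97Q vehicle cells 7 and 22, 97Q RGFP109 cells 4 and 22, and astrocyte cell 10. No 25Q or empty vector neuron had all 9. Of these 4 neurons, 3 were marker-rich, with 1879 to 3251 CPM of astrocyte markers, and 97Q vehicle cell 22 was not. The median neuron had 6 of the 9 genes in 97Q vehicle and 5 in 25Q vehicle. With RGFP109 it had 5.5 in 97Q and 5 in 25Q, and it had 4 in the empty vector group. Summed over the 9 genes, the median cell held 287 CPM in 97Q vehicle and 107 CPM in 25Q vehicle. It held 158 CPM with RGFP109 in 97Q, 205 CPM with RGFP109 in 25Q, and 57 CPM in the empty vector group.

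**Figure D5:**
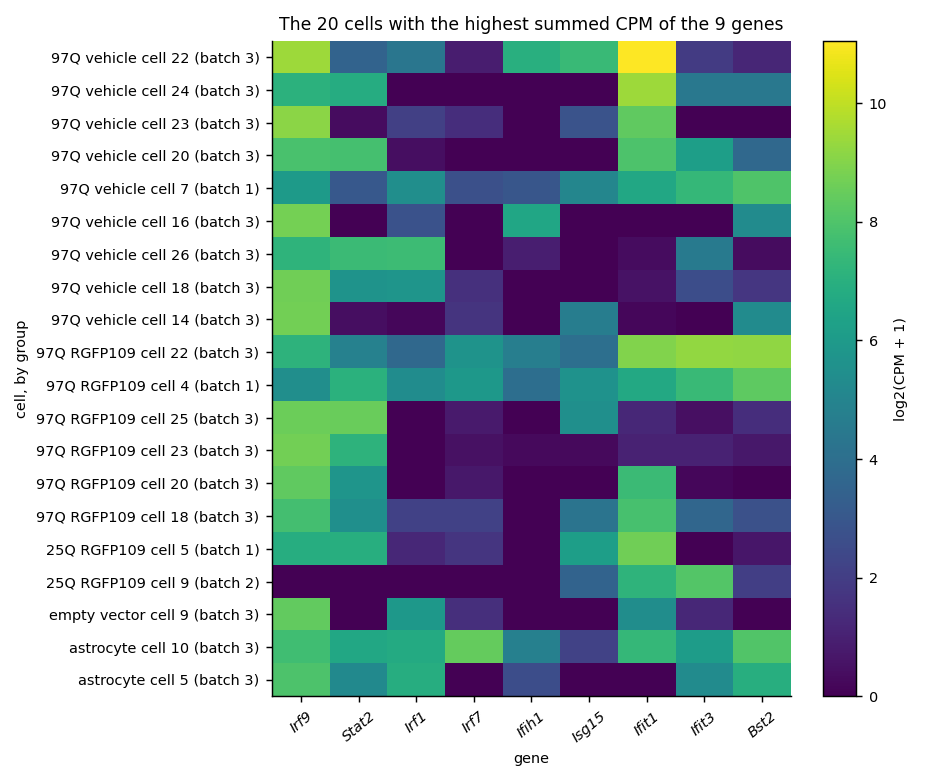
The 20 cells with the highest summed CPM of the 9 genes, by group (vertical axis), with log2(CPM + 1) of each gene as colour. Of these cells 9 were 97Q vehicle, 6 were 97Q RGFP109 and 2 were 25Q RGFP109 neurons, and Irf9 was at 0 in 1 of the 20.

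The rest of the pathway was counted in lists. Of 10 interferon genes, Ifna2 had counts in 2 neurons, and the other 9 (Ifnb1 and Ifng among them) had 0 counts in all neurons and astrocytes. Of 11 receptor and kinase genes 10 could be tested for 97Q against 25Q under vehicle, with 8 fitted changes above 0 and 2 below and a median of 0.26. Among them Ifnar1 and Ifnar2, the chains of the type I receptor, were at 1.04 (standard error 0.76) and 1.06 (1.00), and Stat3 was at -0.56 (0.45). The list of 12 sensors and adaptors, of which 11 were in the table and 7 could be tested, had 5 above 0 and 2 below. Tlr3, a double-stranded RNA sensor of endosomes, was at -3.63 (1.53), and Ddx58 (RIG-I) and Dhx58 were at 1.36 (1.46) and 1.93 (2.28). Dhx58 averaged 0.69 CPM over the 97Q vehicle sums and 0.81 CPM over those of 25Q vehicle, the other way from its fitted change.

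Among the target genes most fitted values were above 0, and none passed the test. Of 48 other target genes 31 could be tested, with 25 above 0 and 6 below and a median of 1.01. Over all genes tested, 52.4% were above 0 with a median of 0.06. The same list had 23 of 31 above 0 (median 0.62) for RGFP109 against vehicle in 97Q, against 48% of all genes tested. In 25Q there were 22 (median 1.02), against 50.1%. For 97Q against 25Q under RGFP109 there were 17 (median 0.20), against 50.1%. The lists were not counted without the marker-rich neurons. The guanylate-binding proteins Gbp7 and Gbp3 had fitted changes of 6.62 (standard error 2.11) and 5.29 (1.98), and Oas1b, of the oligoadenylate synthetase family, had 5.24 (2.34). Gbp7 averaged 14.5 CPM over the 97Q vehicle sums and 0.26 CPM over those of 25Q vehicle. Oas1b stood at 0.33, 0 and 8.47 CPM in the 97Q vehicle sums of batches 1, 2 and 3, and averaged 0.06 CPM over those of 25Q vehicle. All 10 antigen processing genes were tested, with 8 above 0 and 2 below and a median of 1.12, among them the immunoproteasome subunits Psmb9 at 5.77 (2.70) and Psmb8 at 3.15 (1.61), and B2m, the light chain of MHC class I, at 0.89 (0.55).

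The inhibitors were split, with 3 of 6 above 0 and 3 below. Usp18, which removes Isg15 from its targets and damps the receptor, was at 3.38 (standard error 2.34), Socs1 at 2.34 (1.80) and Pias1 at 0.75 (0.47). Of 6 other interferon regulatory factors 3 could be tested: Irf3 was at -2.38 (2.00), Irf5 at 0.87 (0.82) and Irf2 at -0.28 (1.42). None of these lists had a gene past an adjusted p of 0.05 in any of the 5 contrasts by edgeR. At an unadjusted p under 0.05 for 97Q against 25Q under vehicle stood Gbp7, Gbp3 and Tlr3, 3 of the 67 genes of these lists that could be tested (4.48%), against 3.96% of all genes tested.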

How the data were processed

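The authors deposited raw read counts, with Ensembl genes as lines and cells as columns, made with FastQC, Trimmomatic 0.36, STAR 2.5 and HTSeq 0.9.1 on GRCm38/mm10, per the submitters' processing notes. The annotation release is not given in the sources used here, nor is any tool setting, strand included, so reads of overlapping genes on opposite strands (Irf1 with Gm17334, Irf7 with Phrf1) cannot be told apart. Libraries were made with SMARTer and Nextera XT chemistry, per the labels' protocols.

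Cells are not replicates. Raw counts were summed by group and batch (12 sums of 3 to 15 cells, 8665881 to 76217208 counts), and the labelled batch served as the replicate. With the batch term, p-values measure how far the differences between groups varied from batch to batch. That spread may be technical, and it takes in the draw of 3 to 15 uneven cells a sum. Genes passed filterByExpr of edgeR 4.0.16 and had a count in at least 20% of the transgene neurons, which left 15091 genes and all 9 members. Sums were normalized by TMM and fitted by a robust quasi-likelihood model with group and batch (6 residual degrees of freedom, biological coefficient of variation 0.928), two-sided, with Benjamini-Hochberg adjustment over all genes tested. Standard errors are the absolute log2 fold change over the square root of F. Within-batch differences are of log2(CPM + 1). The batch is a shared label, and sums of a batch deviated together, with Pearson r across genes of 0.061 to 0.329 within batches and at most 0.094 between them. On simulated data for 97Q against 25Q under vehicle, over 15020 genes, 26 of 100 genes changed by 2 on the log2 scale and 97 of 100 changed by 4 were called, with 6 false calls. The simulated counts had a smaller spread than the 0.928 fitted here and no batch effect, and only genes above a set level were changed. These shares are therefore not the power for the 9 genes.

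Batch 3 folds are ratios of CPM of sums, called at 2-fold. Levels per length used exons of GENCODE M21. Gene symbols were matched for 53274 identifiers. Alternatives were RLE size factors, DESeq2 1.42.0, limma 3.58.1 with voom, no filter, no batch term, leaving out a batch, thinning each cell to 999700 counts, leaving out the richest cell and, chosen after seeing the data, leaving out marker-rich neurons and, in batch 3, the richest cell of either group. The members and lists were chosen with earlier results of these data known. The 9 members are named in every comparison, and each list names its 3 tested genes with the smallest p for 97Q against 25Q under vehicle.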

Additional observations from a re-analysis of the deposited data

Results flagged for a closer look

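In the empty vector group of 9 neurons, the highest neuron stood far from the others for 6 of the 9 genes. Irf9 was at 332 CPM in the highest neuron, with the next at 49.5 CPM. Ifit1 was at 41.4 CPM and Isg15 at 17.9 CPM, each with the other 8 neurons at 0. Ifit3 was at 15.4 CPM with the next at 7.63 CPM, Irf7 at 12.6 CPM with the next at 1.83 CPM, and Ifih1 at 0.183 CPM, which is 1 count, with the other 8 at 0. Cell 9 was the highest for Irf9 and Ifit1, and cell 1, a marker-rich neuron, for Isg15, Ifit3 and Irf7. Chance gives such a gap in about 1 in 20 groups of normally distributed values. That share does not hold here, since with 8 of 9 neurons at 0 any count in the other neuron meets the limit, and these are cells of 1 batch.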

How the results depend on the processing

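No member passed an adjusted p of 0.05 in any contrast by edgeR under any alternative, and the 1 member call was that of Irf9 by DESeq2 for 97Q against 25Q under vehicle. DESeq2 called 213, 110, 143, 277 and 70 genes in the 5 contrasts, against 0 by edgeR in each. Without the filter edgeR called 1 gene for RGFP109 against vehicle in 97Q and 3 for 97Q against 25Q under RGFP109. In that last contrast limma-voom called 3 genes and the thinned counts 1. Present in at least 50% of neurons were 6 members at 1 count and 1 member at 10 CPM. Without the batch as a replicate block no gene was called, and 343, 243, 254, 363 and 285 genes stood at an unadjusted p under 0.05, against 597, 375, 381, 564 and 393 with it. Cell numbers in the labels are running numbers and paired nothing.

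Irf9 kept its sign for 97Q against 25Q under vehicle (1.45 to 2.19), as did Isg15 (2.87 to 5.10), Bst2 (0.98 to 2.62), Ifit3 (0.78 to 2.46) and Irf1 (0.55 to 2.63). The fitted log2 changes below took the other sign, and the cause was not tested. Without the block, 97Q against 25Q gave 0.12 for Stat2 under vehicle and -1.54 for Irf1 under RGFP109. RGFP109 against vehicle gave -1.14, -1.07 and -0.049 for Irf1, Ifih1 and Ifit3 in 97Q and -0.017 for Irf9 in 25Q, and the interaction gave -0.25, -2.97 and -0.12 for Stat2, Irf1 and Ifih1. By limma-voom, 97Q against 25Q gave 0.80 and -0.45 for Stat2 and Irf7 under vehicle and 0.52, -0.63 and 0.15 for Stat2, Irf1 and Ifit3 under RGFP109. The drug gave -0.38, 0.43 and -0.38 for Irf1, Ifit1 and Ifit3 in 97Q and -0.10 for Irf9 in 25Q, and the interaction -0.28 and -2.22 for Stat2 and Irf1. Thinned counts gave -1.04 for Irf7 (97Q against 25Q, vehicle) and -0.31 and -0.36 for Stat2 and Irf1 (interaction). Without marker-rich neurons, 97Q against 25Q gave -1.88 and -0.77 for Irf7 and Ifih1 under vehicle and -3.17, -0.84, -0.093 and -0.54 for Irf1, Irf7, Ifit1 and Bst2 under RGFP109. The drug in 97Q gave -4.57, -1.32, -0.50, -1.22 and -0.46 for Irf1, Irf7, Ifih1, Ifit3 and Bst2, and the interaction -1.05 and -4.95 for Stat2 and Irf1.

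Leaving out 1 batch in turn, 97Q against 25Q under vehicle gave -2.28 to 0.75 for Stat2, -2.32 to 2.47 for Irf7, -1.35 to 1.55 for Ifih1 and -0.027 to 4.09 for Ifit1. Under RGFP109 it gave -1.21 to 0.14 for Stat2, -2.09 to 6.11 for Irf1, -2.86 to 0.36 for Isg15, -0.35 to 1.62 for Ifit1, -3.18 to 1.41 for Ifit3 and -0.29 to 2.22 for Bst2. The drug in 97Q gave -1.94 to 6.75 for Irf1, -1.93 to 6.69 for Ifih1, -1.31 to 1.92 for Ifit1, -1.30 to 0.85 for Ifit3 and -0.35 to 0.45 for Bst2. In 25Q it gave -0.13 to 0.43 for Irf9, -2.21 to 2.34 for Irf7, -2.65 to 0.0016 for Ifih1 and -0.77 to 2.57 for Bst2. The interaction gave -0.90 to 1.07 for Stat2, -3.85 to 5.25 for Irf1, -1.40 to 6.04 for Irf7, -0.84 to 6.95 for Ifih1 and -2.92 to 1.22 for Bst2. Batch 2 held 3 to 4 cells a group. In batch 3, without the richest cell of the group named first (chosen after seeing the data), the log2 fold was -0.82 for Irf7 in 97Q vehicle over empty vector, -3.71 for Ifit1 in astrocytes over empty vector and -0.65 for Irf7 in astrocytes over 97Q vehicle.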
